A study of Homo sapiens with 2 samples.

Results

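The widest open regions of 293T cells were described here, namely the ATAC-seq peaks that span at least 2000 bp in the list from control cells. They were selected on that width alone, on chromosomes 1 to 22, X and Y, and they number 948 of 35515 control peaks. Because control width chose them, the widths and enrichments of the control list describe the selection and are not findings. ATAC-seq uses the Tn5 transposase to insert sequencing adapters into DNA that nucleosomes leave free, and a broad peak is a stretch where such insertions pile up. Each library was made from 50000 cells of 293T, an established line derived from human embryonic kidney and expressing SV40 large T antigen. The control cells were given fresh medium, although another label of that sample gives PBS as its treatment, and the treated cells were given 0.5 mM methylglyoxal (MGO), a reactive by-product of glycolysis that glycates histones, for 12 h. The peak lists of 1 control and 1 MGO sample were analysed. Peak names in both lists carry the number 2, and whether other replicate libraries went into them is not known here. No difference between the conditions therefore has a replicate check, and no test between them was made. The depth of the libraries is not given by the lists, although the authors subsampled the reads to an equal depth.

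Most open regions of a cell are short, because a promoter or enhancer typically frees a nucleosome or so around bound factors. Very wide accessible stretches are known from CpG-island promoters of developmental transcription factors and of genes that respond quickly to signals, and from genes for abundant small RNAs. Arrays of satellite DNA near centromeres, which exist in many near-identical copies, can also appear in lists of wide peaks.

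The members fell into 5 kinds by their sequence and annotation. Of the 948, 783 lay within 1000 bp of a transcription start site (TSS) of a protein-coding or lncRNA gene in GENCODE 44. A further 42 were tandem repeats, with at least 50% of bases identical to the base a fixed step further on. Another 15 lay by a small RNA gene, 1 was made largely of sequence shared with the mitochondrial genome, and 107 had none of these features and are called other distal peaks. The tandem-repeat and mitochondrial classes and their limits were set after the sequences had been looked at.

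Wide TSS members are CpG-rich. U2SURP, which codes for a protein bound to the U2 spliceosome particle, is shown because the gap in GC and CpG content between the part of its control peak that an MGO peak covered and the part that none covered was the closest to the typical gap. Its control peak was chr3:142999462-143002261 (GRCh38), and the MGO peak there was chr3:143001054-143002331. The stretches below are the middle 150 bases of the covered and the uncovered part, at chr3:143001583-143001732 and chr3:143000183-143000332, on the plus strand, as are all stretches printed here unless stated otherwise, with CpG dinucleotides in capitals.
U2SURP covered: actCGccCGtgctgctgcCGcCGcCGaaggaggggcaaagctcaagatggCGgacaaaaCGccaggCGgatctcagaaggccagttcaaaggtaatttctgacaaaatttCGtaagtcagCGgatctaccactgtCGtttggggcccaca
U2SURP uncovered: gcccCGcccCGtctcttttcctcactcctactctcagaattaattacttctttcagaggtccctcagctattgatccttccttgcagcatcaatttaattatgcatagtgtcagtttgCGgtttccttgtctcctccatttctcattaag
The covered stretch has 11 CpG dinucleotides and a GC content of 56.0%, and the uncovered stretch has 3 and 44%.

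Promoters of 3 members with different outcomes follow, each from 250 bases before to 50 bases after the start in RefSeq (GRCh38.p14). SPRY2, an inhibitor of receptor tyrosine kinase signalling, kept nearly all of its wide peak. IGFBP3, an insulin-like growth factor binding protein, kept little of it. PTMA, which codes for the chromatin-associated protein prothymosin alpha, had a wider MGO peak. They were picked after their values were seen. Capitals mark matches on either strand to the GC box GGGCGG, to the box CCAAT bound by NF-Y, to the TATA motif TATAAA and to the ETS core CCGGAA.
SPRY2: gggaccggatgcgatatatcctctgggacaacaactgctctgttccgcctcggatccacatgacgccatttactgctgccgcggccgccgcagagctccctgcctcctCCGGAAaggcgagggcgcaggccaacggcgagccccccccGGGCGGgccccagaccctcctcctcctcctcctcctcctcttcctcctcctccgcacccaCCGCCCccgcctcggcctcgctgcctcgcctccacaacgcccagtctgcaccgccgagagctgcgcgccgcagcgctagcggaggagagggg
IGFBP3: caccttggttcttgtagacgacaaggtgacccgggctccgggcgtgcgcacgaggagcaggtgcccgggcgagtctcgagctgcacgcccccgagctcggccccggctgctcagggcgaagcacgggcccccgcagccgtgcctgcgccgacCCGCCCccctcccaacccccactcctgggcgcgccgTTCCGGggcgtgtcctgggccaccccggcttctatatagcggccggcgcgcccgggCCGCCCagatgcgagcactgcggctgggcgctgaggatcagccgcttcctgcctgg
PTMA: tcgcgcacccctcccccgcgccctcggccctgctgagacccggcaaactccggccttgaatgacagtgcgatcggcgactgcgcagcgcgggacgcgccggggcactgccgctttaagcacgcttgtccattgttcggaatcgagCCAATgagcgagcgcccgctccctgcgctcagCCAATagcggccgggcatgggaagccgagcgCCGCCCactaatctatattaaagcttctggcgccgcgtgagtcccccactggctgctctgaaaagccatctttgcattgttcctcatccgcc
SPRY2 (chr13:80341077-80341376, minus strand) and IGFBP3 (chr7:45921223-45921522, minus strand) each hold 2 GC boxes and 1 ETS core. PTMA (chr2:231708275-231708574, plus strand) holds 2 CCAAT boxes and 1 GC box. The SPRY2 and PTMA promoters lie within MGO peaks, at chr13:80338980-80343099 and chr2:231706631-231709912. The IGFBP3 promoter lies just outside the only MGO peak over its member, at chr7:45920854-45921204.

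The tandem-repeat members are of several families. On chromosomes 1 and 16 the widest of them hold many copies of the 5-base unit GGAAT or its complement ATTCC, which is the unit of human satellites 2 and 3. The 120 bases richest in that unit are printed for each, with GGAAT and ATTCC in capitals.
chr1:143214919-143215038: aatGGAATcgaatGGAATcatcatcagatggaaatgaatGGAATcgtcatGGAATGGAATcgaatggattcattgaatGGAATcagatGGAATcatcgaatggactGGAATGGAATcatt
chr16:46390083-46390202: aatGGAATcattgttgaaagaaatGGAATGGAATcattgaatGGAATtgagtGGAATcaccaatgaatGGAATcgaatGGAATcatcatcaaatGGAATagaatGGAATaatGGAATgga
The whole members hold 48.0 such units per kb on chromosome 1 and 44.9 on chromosome 16. A member on chromosome 20 instead repeats every 171 bp, the unit length of alpha satellite, and 1 unit of it is printed with capitals where the base 171 bp further on is the same.
chr20:28841784-28841954: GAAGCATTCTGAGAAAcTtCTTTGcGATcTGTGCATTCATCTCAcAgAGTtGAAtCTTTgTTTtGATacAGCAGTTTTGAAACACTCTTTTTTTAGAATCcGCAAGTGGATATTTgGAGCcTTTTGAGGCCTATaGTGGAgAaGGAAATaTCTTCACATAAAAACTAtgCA
In this unit 150 of 171 bases are capitals.

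Of the other kinds, 3 stretches are shown. The mitochondrial-like member on chromosome 1 is printed with capitals where it differs from the mitochondrial genome of the assembly, the tRNA gene cluster with capitals on an internal promoter element of tRNA genes, the B box (here GGTTCGANNCC), and an other distal member in an intron of RERG with CpG in capitals, of which it has 0.
chr1:630578-630727: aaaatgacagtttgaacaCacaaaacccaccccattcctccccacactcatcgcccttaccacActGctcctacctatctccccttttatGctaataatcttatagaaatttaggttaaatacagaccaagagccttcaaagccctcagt
chr1:161456333-161456452: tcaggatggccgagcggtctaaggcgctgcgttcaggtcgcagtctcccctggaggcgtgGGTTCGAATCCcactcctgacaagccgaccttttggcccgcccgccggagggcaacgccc
chr12:15214056-15214205: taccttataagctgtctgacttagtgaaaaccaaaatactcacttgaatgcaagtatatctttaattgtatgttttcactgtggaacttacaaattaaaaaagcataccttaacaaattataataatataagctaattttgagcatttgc
The first stretch differs from the mitochondrial genome at 4 of 150 bases, and along the longest alignable part of that member 2531 of 2568 bases were identical.

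Wide control peaks were mostly promoters, and nearly all of them still overlapped a peak after MGO, although often a shorter one. Of the 948, 783 (82.6%, 95% Wilson interval 80.1 to 84.9) were at a TSS, compared with 73.1% of the 9888 control peaks of 1000 to under 2000 bp and 28.1% of the 24679 narrower ones. Over all control peaks the share was 42.1%. The difference from the peaks of 1000 to under 2000 bp was 9.49 percentage points (Newcombe interval 6.80 to 11.9). In the MGO list, 902 of the 948 (95.1%, interval 93.6 to 96.3) met a peak, against 49.7% of all control peaks and 83.2% of those of 1000 to under 2000 bp. A wider region has more room both to hold a TSS and to meet a peak, and the part of width itself in these shares was not tested. Intervals cover counting error over the peaks of these lists only.

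**Figure D1:**
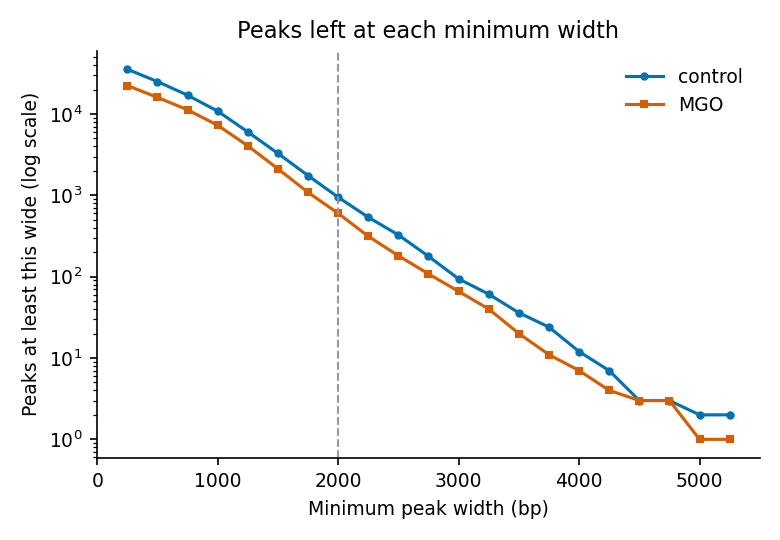
Number of peaks (log scale) that are at least as wide as the value on the x axis (bp) in the control list (blue circles) and the MGO list (orange squares), with the 2000 bp limit dashed. The control list holds more peaks up to 4250 bp, with 948 against 601 at 2000 bp, and the widest peaks are 5499 bp in control and 5417 bp in MGO.

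The control list as a whole is the larger, with 35515 peaks against 22379. Wide peaks made up a like part of the covered sequence in both lists, 2.326 of 29.726 Mb (7.83%) in control and 1.463 of 19.063 Mb (7.67%) in MGO. Of the bases in the 948 members, 71.7% lay under MGO peaks, compared with 65.2% for control peaks of 1000 to under 2000 bp and 31.1% for narrower ones. Promoters of genes that mark 293T cells were checked in the lists. VIM and PAX2 had a peak at a TSS in both lists and LHX1 in neither, and none of the 6 marker promoters of other cell types (ALB, PTPRC, CD3E, INS, MYH6, GFAP) had one in either.

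The wide TSS members were GC-rich, held several start sites and kept most of their width under MGO. Their median GC content was 62.2% (order-statistic interval 61.7 to 63.0, n = 783) and their CpG observed-to-expected ratio was 0.787. The 7229 TSS peaks of 1000 to under 2000 bp had 64.1% and 0.783. The wide members with a TSS inside held a median of 4 start positions, the same as the shorter peaks, or 1.85 per kb against 3.29. Starts on both strands were present in 338 of 771 (43.8%) and in 33.7% of the shorter TSS peaks, a difference of 10.1 points (6.46 to 13.8). A wider peak has more room for starts of both strands, and the part of width in this difference was not tested. With protein-coding starts only, 8.97% of all 948 members had starts on both strands, in place of 35.7%.

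An MGO peak overlapped 772 of the 783 wide TSS members (98.6%), 2.15 points (0.985 to 2.92) more than of the shorter TSS peaks. The median share of a wide TSS member under MGO peaks was 82.3% (81.3 to 84.4) and that of the shorter TSS peaks 83.5% (83.0 to 84.0). At least 90% was covered in 266 (34%) of the wide and 33.4% of the shorter TSS peaks, a difference of 0.579 points with an interval from −2.83 to 4.13. Over all control peaks 16.0% were covered to this extent. Under 50% was covered in 128 wide TSS members (16.3%), 6.06 points (3.53 to 8.89) more than of the shorter TSS peaks. Coverage is a share of the control width that chose the wide members, so low coverage among them is favoured by that choice. The part of the selection in these differences was not tested.

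**Figure D2:**
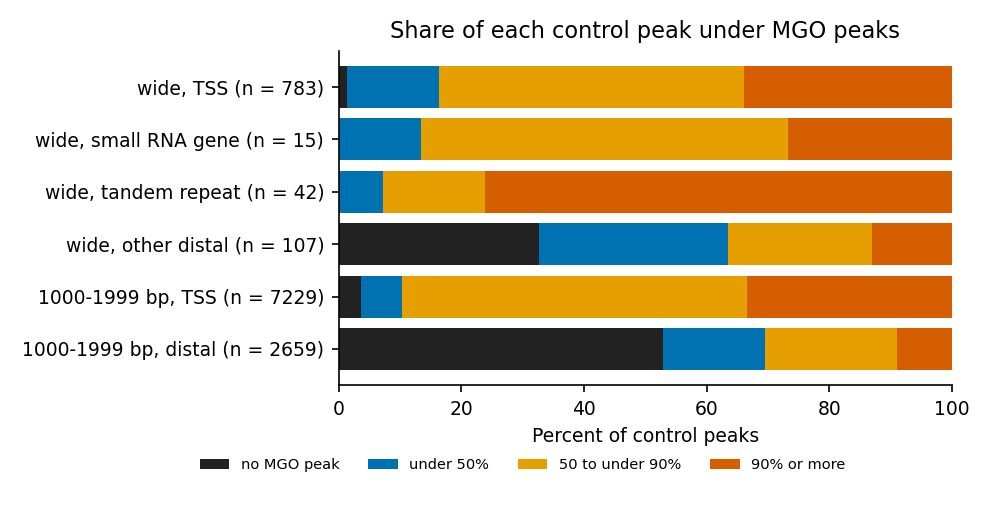
Percent of control peaks (x axis) in each class of coverage by MGO peaks (colours) for the kinds of wide control peak and for control peaks of 1000 to under 2000 bp at a TSS or distal. The distal peaks of 1000 to under 2000 bp were not split by kind. Among wide peaks, 76.2% of tandem repeats, 34% of TSS members and 13.1% of other distal members were covered to 90% or more, and 32.7% of other distal members met no MGO peak.

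The covered parts of wide TSS members were richer in GC than the parts left uncovered. In 543 wide TSS members with at least 200 bp of both, the median GC content was 66.0% in the covered and 53.8% in the uncovered part, with a median difference of 11 points (10 to 12). CpG density was 86.9 per kb in the covered and 40.5 in the uncovered part, and it was higher in the covered part in 475 members (87.5%). The 3605 TSS peaks of 1000 to under 2000 bp gave a difference of 11.7 points in GC, with CpG higher in the covered part in 90.2%, so that the gap was not particular to the wide peaks. Covered and uncovered parts were not matched for distance from the start, and the part of position in the gap was not tested. In the 84 members where MGO peaks reached 200 bp or more beyond the control peak, the added sequence had a median GC content of 61.3%, close to the 62.4% of those members themselves. Its median CpG density was 56.5 per kb (45.7 to 68.2), below that of the covered and above that of the uncovered parts given above. Those values come from the 543 members, a set chosen by another limit, so the comparison is not like with like. For U2SURP, printed above, the covered part had 56.4% GC and 61.3 CpG per kb and the uncovered part 45.4% and 20.7.

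The position of the peaks around the start was described in the 433 members with starts on 1 strand only. The control peak extended a median of 633 bp upstream and 1712 bp downstream of the most upstream start, and the peaks of 1000 to under 2000 bp extended 460.5 and 816 bp. Distances are counted from the most upstream start, and the starts of a member spread over a median of 350 bp, which by itself shifts the extent downstream. The members were chosen for wide control peaks, which by itself sets MGO coverage below that of control at each distance, so the following values are a description. At the start itself 85.5% were covered, at 500 bp upstream 42.7% against 61.7% in control, and at 1500 bp downstream 40.6% against 63.3%. MGO edges inside the control peak, also favoured by that choice, were found upstream in 321 of 424 members and downstream in 322. The median of upstream minus downstream retraction was −27.5 bp (−64 to 14), an interval that includes 0, and in the peaks of 1000 to under 2000 bp it was 44 bp (34 to 52). Its sign changed with the width limit, to 18 bp (−5 to 38) at 1500 bp and 112 bp (−95 to 152) at 3000 bp.

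**Figure D3:**
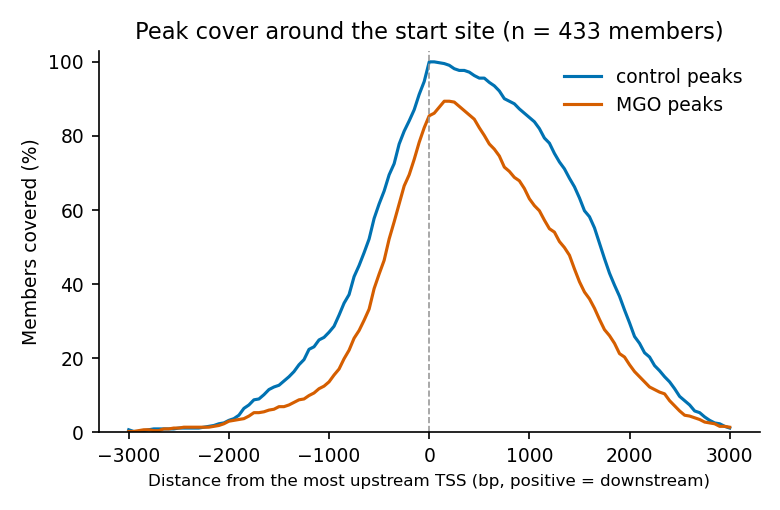
Percent of the 433 members with starts on 1 strand (y axis) covered by a control peak (blue) or an MGO peak (orange) at each distance from the most upstream TSS (bp, positive is downstream). Control reaches 100% at the start because a start inside the control peak is required, and the MGO line peaks at 89.4% at 150 bp downstream.

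Wide peaks were counted for several gene lists, next to all protein-coding genes. A TSS within 1000 bp of a wide control peak was found for 855 of 20033 protein-coding genes (4.27%). Immediate early genes, which are switched on within minutes of a signal, had 8 of 26 (30.8%, Wilson interval 16.5 to 50). A wide MGO peak was found for 9 of these 26 and for 569 of all protein-coding genes. Of the lists below, HOX (4) and ribosomal protein genes (4) also had more genes at wide peaks in MGO than in control. The cyclin and snoRNA host lists had the same number, and the others fewer. MGO coverage of the immediate early members ran from 51.2% to 96.8% with a median of 82.7%, next to a median of 81.7% for all members. MYC, a growth-promoting transcription factor, had the widest TSS peak, 4397 bp in control and 2462 bp in MGO, and the MGO peak covered 56.0% of it. JUN, a subunit of AP-1, had 3931 bp in control and 2750 bp in MGO, with 70.0% covered. KLF6, a zinc finger factor, had 2754 and 2540 bp with 84.9% covered, and FOS, the partner of JUN, had 2419 and 2344 bp with 96.8%. FOS was named after its values were seen.

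Transcription factors of kidney development had 7 of 24 genes at a wide peak (29.2%, interval 14.9 to 49.2), with a median coverage of 84.8%. TFAP2A had 3595 bp in control and 3571 bp in MGO, SIX4 3017 and 2863 bp, and EMX2 2812 and 2454 bp. PAX2, a regulator of kidney development, was the exception in this list, with 2367 bp in control and 443 bp in MGO at its TSS (18.7% covered). Another wide peak nearest to PAX2, distal to its starts, had 2061 and 1974 bp with 92.6% covered, and was named after its values were seen.

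SOX genes had 5 of 19 at a wide peak (26.3%), FOX genes 8 of 51 (15.7%) and KLF and SP genes 8 of 30 (26.7%), and every one of these wide peaks met an MGO peak, as did 98.6% of all wide TSS members. SOX6 had 3533 bp in control and 2763 bp in MGO. SOX12 was wider in MGO, with 2459 and 3158 bp, and SOX21 was nearly the same in both, with 2230 and 2175 bp. FOXO3, which acts in stress resistance and metabolism, had 3198 bp in control and 3524 bp in MGO, whereas FOXF2 had 2844 and 1611 bp and FOXP1 3282 and 2779 bp. SP9 had 2924 and 2625 bp and KLF12 2687 and 2465 bp. HOX genes had 3 of 39 at a wide peak (7.69%, 2.65 to 20.3). HOXC4 had 3005 bp in control and no MGO peak wider than 529 bp there. The peak shared by HOXD11 and HOXD10 was 2112 bp in control and 3279 bp in MGO, and the MGO peak, chr2:176104625-176107903, reached beyond the control peak on the left, which starts at base 176106580.

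Replication-dependent histone genes, whose short intronless units lie close together, had 20 of 69 at a wide peak (29.0%, 19.6 to 40.6), in only 9 peaks because neighbouring genes share them. Their median coverage was 91.2%. The widest, at H2BC21, H2AC20 and H2AC21, had 3042 bp in control and 2775 bp in MGO, and that at H2BC11 and H2AC11 had 2711 and 1820 bp. The peak at H3C12, H2AC17 and H2BC17 kept least, with 2440 bp in control and 726 bp in MGO. On chromosome 1, 4 wide members lay within 76.9 kb around the histone genes H2BC18 to H2AC21, with 86.6% to 100% covered.

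Cyclins of the D and E type and cell cycle inhibitors had 3 of 12 genes at a wide peak (25%, 8.89 to 53.2). CCND2, which codes for cyclin D2, had a control peak of 3187 bp and no MGO peak. CDKN2A, which codes for p16 and p14ARF, had 2234 bp in control and 2710 bp in MGO, and CDKN2C 2204 and 2066 bp. The core clock genes had 2 of 15, BHLHE40 with 2668 and 2577 bp and CRY1 with 2229 and 1749 bp.

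Other lists had shares near or below the 4.27% of all protein-coding genes, with wide intervals. Histone-modifying and chromatin enzymes had 3 of 57 (5.26%), namely the methyltransferase genes KMT2A, with 2800 bp in control and 1868 bp in MGO, and KMT2C, with 2024 and 1738 bp, and the demethylase gene KDM3A, with 2024 and 2039 bp. Genes of defence against methylglyoxal had 1 of 15. This was NFE2L2, which codes for the antioxidant regulator NRF2, with 2004 bp in control and 1768 bp in MGO. Heat shock proteins had 1 of 24, DNAJB4, at a peak of 2627 bp in control and 1888 bp in MGO that also covers starts of FUBP1 and GIPC2. C2H2 zinc finger genes named ZNF had 16 of 508 (3.15%, 1.95 to 5.05). ZNF423 and ZNF608 kept 34.1% and 22.6% of their wide peaks, and ZNF521 had an MGO peak of 2749 bp over a control peak of 2431 bp. Cytosolic ribosomal protein genes had 2 of 88, RPS29 with 2382 and 1624 bp and RPL7 with 2103 and 2170 bp. Of 32 snoRNA host genes, 0 were at a wide peak, which allows up to 10.7% (Wilson).

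Promoter sequences of genes at wide peaks differed little from those at other control peaks in most motifs searched. RefSeq promoters of 300 bases matched 812 of the 1226 gene names at wide peaks by symbol, with no check of overlap with the peaks. GGGCGG, searched on both strands as were all motifs, was found in 67.6% of them, in 69.3% of 11518 promoters of genes at other control peaks and in 44.6% of all 27305 promoters. CCAAT was found in 37.4%, 35.9% and 35.7%. TATAAA was found in 8.50% (6.77 to 10.6), 5.57% (5.17 to 6.01) and 12.0%. CCGGAA was the less frequent at wide peaks, with 17.4% (14.9 to 20.1) against 28.5% (27.7 to 29.4), and 17.6% of all promoters. The palindrome TGACGTCA was found in 2.71% of promoters of genes at wide peaks, 3.26% for genes at other control peaks and 1.98% of all promoters. For the palindrome CACGTG these values were 10.1%, 9.76% and 7.43%.

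All 15 members by small RNA genes met an MGO peak, with a median coverage of 85.0% (65.2 to 90.4). They held 9 members by tRNA genes, and the others were by VTRNA1-2, a vault RNA gene, by the spliceosomal RNA genes RNU4-1, RNU4-2 and RNU2-1, by unnamed small RNA loci of the same region as RNU2-1, and by the 45S ribosomal RNA genes RNA45SN2 and RNA45SN3. Names were taken from RefSeq (GRCh38.p14). The B box letters were found on either strand in the central 2000 bp of 5 of the 9 tRNA members, of 6 of the 15 small RNA members and of 2.64% of all members. VTRNA1-2 had 2180 bp in control and 1803 bp in MGO, RNU4-1 and RNU4-2 2186 and 1488 bp, and RNU2-1 2910 and 3032 bp. The lowest was a member by the tRNA genes TRP-TGG1-1 and TRT-TGT4-1, with 2770 bp in control and 344 bp in MGO. tRNA, spliceosomal and ribosomal RNA genes have near-identical copies, so reads of 1 copy may be placed on another.

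The tandem-repeat members kept most, and their MGO peaks were more often wider than narrower, as was that of the single mitochondrial-like member. All 42 met an MGO peak, 32 (76.2%) were covered to 90% or more, and the MGO peak was wider than the control peak in 26 (61.9%, 46.8 to 75.0). In comparison, it was wider in 151 of the 902 members with an MGO peak (16.7%) and in 31.2% of all control peaks with one. The median ratio of MGO to control width was 1.01 (0.996 to 1.03) for tandem repeats and 0.841 (0.823 to 0.861) for TSS members. Their median GC content was 41.0%, with a range from 21.6% to 67%, and 38 of 42 were intergenic. The step with most identical bases was 5 bp in 15 members, 26 bp in 9, 49 bp in 5 and 42 bp in 3, and the rest had other steps. Satellite arrays exist in near-identical copies, so reads may be placed on another copy. Reads of mitochondrial DNA may likewise be placed on the mitochondrial-like member. Neither was tested.

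The widest control peak of all, chr1:143212459-143217957 with 5499 bp, was one of 8 tandem-repeat members within 80.1 kb. It met 2 MGO peaks, which covered 73.0% of it. Other tandem repeats among the 10 widest were covered almost whole. Among them are chr1:143251687-143256573 (4887 bp in control, 4996 bp in MGO), chr16:46386883-46391319 (4437 and 4771 bp) and chr1:143237033-143241195 (4163 and 4245 bp). The highest width ratio of any member, 1.63, was that of the 171-bp repeat on chromosome 20, with 2133 bp in control and 3482 bp in MGO, and the GGAAT-type repeat chr16:34062759-34064860 had 2102 and 3240 bp. The mitochondrial-like member chr1:629294-634575 had 5282 bp in control and 5417 bp in MGO, and its −log10 p was 989 in control and 1080 in MGO, the control value being the highest of all members. Fold enrichment there was 1.81 in control and 1.87 in MGO.

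**Figure D4:**
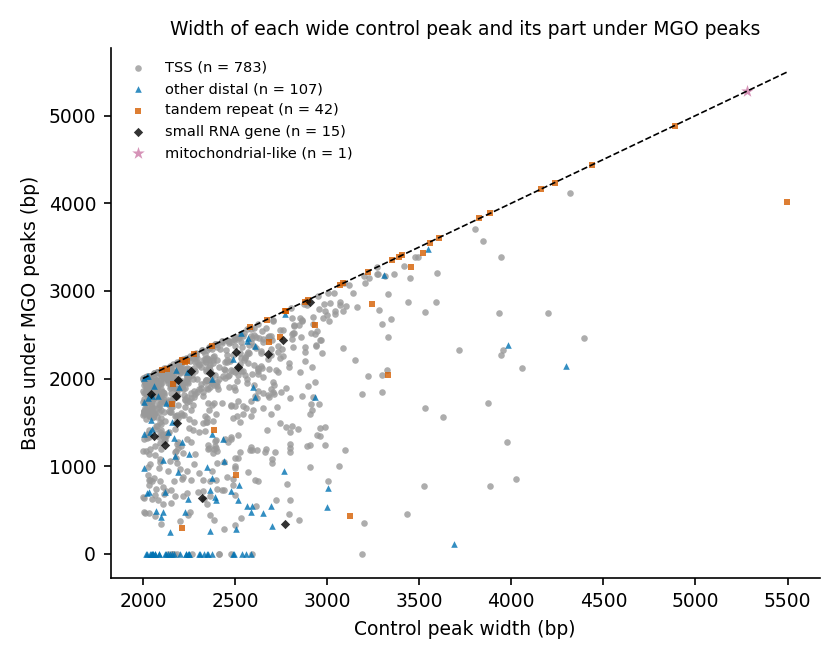
Width of each of the 948 wide control peaks (x axis, bp) and the number of its bases under MGO peaks (y axis, bp), with kinds of member as symbols and full coverage dashed. Tandem repeats lie along the dashed line except for 10 of 42 with less than 90% coverage, and other distal members lie lowest, 35 of 107 at 0 beside 11 of 783 TSS members.

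The other distal members kept least. An MGO peak was met by 72 of 107 (67.3%, 57.9 to 75.4), 31.3 points (23.1 to 40.7) fewer than of the TSS members, and the median coverage was 27.2% (18.6 to 42.5). Among all 165 distal wide members, with repeats and small RNA members included, 78.8% met an MGO peak. For distal control peaks of 1000 to under 2000 bp, which were not split by kind, the share was 47.1%. The other distal members had a median GC content of 41.0%, a median of 9.68 CpG per kb and a median distance of 21.7 kb to the nearest TSS. Of these, 56 lay in introns, 42 between genes and 9 over exons. Their control −log10 p was lower than that of TSS members, with medians of 5.01 and 8.80. A control −log10 q of at least 2 was reached by 75 of the 107 (70.1%), by 97.2% of wide TSS members and by 66.1% of all control peaks. The part of peak strength in the lower coverage of the other distal members was not tested. Chromosome 13 held 15 of the 107 (14.0%). It held 5.58% of all distal control peaks under 2000 bp, a set from which repeats and small RNA loci were not removed.

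The 5 members of lowest coverage, taken in order of control fold enrichment among the 46 with no MGO peak, were all of this kind and all intronic by annotation. Those with a named gene as the nearest TSS are at RERG (chr12:15213015-15215246, 2232 bp, control fold enrichment 3.30) and TGFBR3 (chr1:91805484-91807601, 2118 bp, 3.21), which code for a Ras-like growth inhibitor and a TGF-beta co-receptor. The remaining 3 were chr2:175805805-175807953, chr12:78100098-78102428 and chr13:92101975-92104281. An exception among distal members was the intronic peak nearest to the protocadherin gene PCDH9, with 2030 bp in control and 2801 bp in MGO. The widest of the other distal members, chrY:11325987-11330282 with 4296 bp, met 2 MGO peaks that covered 49.9% of it. Chromosome Y held only 62 control peaks, 3 of them wide, and its other wide members were tandem repeats. Whether reads there came from other sequences was not tested.

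At TSSs, 11 members had no MGO peak. Besides CCND2 they included RASSF9, ADGRB2, a receptor gene of the adhesion family, TENM1, MAP7 and EPC1, named here after their values were seen. In all kinds together, 35 of the 948 (3.69%) met 2 or more MGO peaks. The share of all control peaks, 0.107%, is no like comparison, because MGO peaks lie at least 1087 bp apart and most control peaks are too narrow to reach 2 of them. With the lists exchanged, 15 of the 601 wide MGO peaks (2.50%) met 2 or more control peaks, and with a −log10 q of at least 2 in both lists the share of wide control peaks was 2.02%. SEMA6A, an axon guidance gene, is among these, with a control peak of 4199 bp and 65.5% covered by 2 MGO peaks of which the wider has 1725 bp.

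Since the members were selected for wide control peaks, their width ratio depends on the selection, and the same comparison was therefore made with the lists exchanged. Selected on control, the median ratio of MGO to control width was 0.845 (0.824 to 0.862, n = 902). For the 594 MGO peaks of at least 2000 bp that met a control peak, the median ratio of control to MGO width was 0.988 (0.974 to 0.996). Put as MGO over control it was 1.01, with 330 wider and 262 narrower in MGO. Selected on the mean width of both lists, the ratio was 0.945 (0.931 to 0.956, n = 585 pairs). Both lists had a wide peak at 415 members (43.8%), and there the ratio was 0.969 (0.954 to 0.979), with the MGO peak narrower in 262 (63.1%). The median ratio thus differed with the list that chose the peaks.

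**Figure D5:**
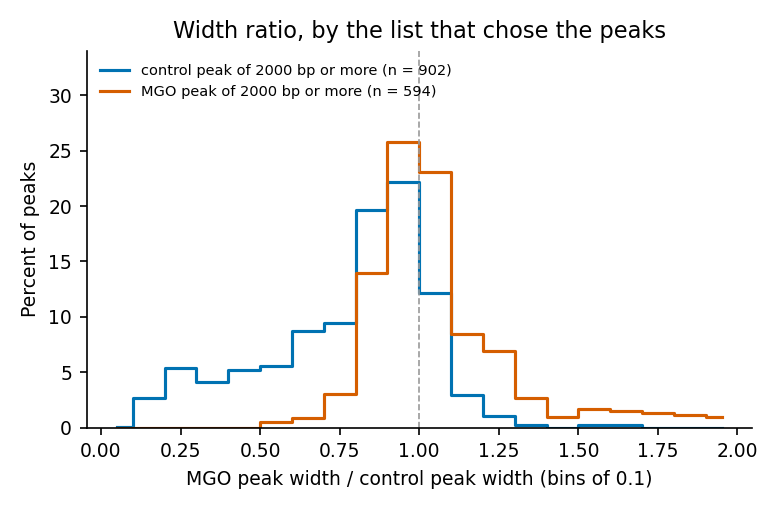
Percent of peaks (y axis) by the ratio of MGO to control width in bins of 0.1 (x axis), for control peaks of at least 2000 bp with an MGO peak (blue, n = 902) and MGO peaks of at least 2000 bp with a control peak (orange, n = 594). The blue line has a long tail below 1 and a median of 0.845, the orange line a tail above 1 and a median of 1.01, and 42 of the orange pairs with a ratio above 2 are not drawn.

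The PTMA peak, printed above, was the TSS member with the highest width ratio, with 2028 bp in control and 3282 bp in MGO. SPRY2 had 4321 bp in control and 4120 bp in MGO, and IGFBP3 2442 and 351 bp. IGFBP5, named after its values were seen, is a related binding protein gene and had 4028 and 853 bp. VIM, which codes for the intermediate filament vimentin and marks 293T cells, had 2942 bp in control and 2384 bp in MGO. Fold enrichment of these 5 peaks was 2.23 to 3.10 in control and 2.13 to 2.95 in MGO.

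The members just inside the limit were at GOLGA4 and BLCAP (both 2001 bp) and PPP4R3B (2002 bp), with 58.7%, 32.4% and 92.7% covered in MGO. Just outside it were the peaks at ZBTB1 and ZBTB25, nearest to PARP16 and at PITPNC1, each 1 bp short of the limit, with 96.5%, 100% and 82.8% covered.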

How the data were processed

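ATAC-seq libraries of 50000 control and 50000 MGO-treated 293T cells were compared, with 1 peak list of each. Reads were aligned by the authors to GRCh38.p12 with BWA-MEM 0.7.15, mitochondrial and multi-mapping reads were removed with Picard (version 2.16.0 per the submitters' processing notes), reads were subsampled to equal depth, and broad peaks outside blacklisted regions were called per sample with MACS2. For each peak the authors deposited start and end positions, a fold enrichment (a ratio), the −log10 of p and q, and a score, which was not used. Read counts are not part of the lists, and the depth behind a peak is unknown. The authors' methods use peaks with q under 0.01, whereas the deposited lists reach down to a −log10 q of 1.01. All deposited peaks on chromosomes 1 to 22, X and Y were used here, of which 23458 of 35515 control peaks and 892 of the 948 members have a −log10 q of at least 2.

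Peaks counted as overlapping from 1 bp. The widest MGO peak was taken where several overlapped, and coverage is the percent of a control peak under MGO peaks. TSSs were transcript starts of GENCODE 44. Shares carry 95% Wilson, differences Newcombe, and medians order-statistic intervals. The peaks named are the 10 widest, 5 of lowest coverage, 5 of highest width ratio among those with an MGO peak of at least 2000 bp, 5 widest distal, 3 on either side of the limit and the 3 widest per gene list. Any other peak or gene named is one of the markers or small RNA members or was chosen after its values were seen. Members, lists and tests were chosen with earlier results of these data known. The alternatives were a −log10 q of at least 2, width limits of 1500 and 3000 bp, joining of peaks, autosomes only, other TSS windows and sets, overlap of at least 50% of the shorter peak, and others chosen after seeing the data. Computations used Python 3.11.15, numpy 2.4.6, pandas 2.3.3, scipy 1.17.1, pysam 0.24.0 and matplotlib 3.10.9. The overlap and TSS functions were tested on simulated data, where all 6 quantities were recovered from 1000 simulated peaks. A marker promoter and a repeat stretch are not reported here.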

Additional observations from a re-analysis of the deposited data

Results flagged for a closer look

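Unplaced and alternate sequences of the assembly were left out of every comparison above. They held 44 peaks of at least 2000 bp in the MGO list and 32 in the control list, whereas the named chromosomes held 601 and 948. Over peaks of any width on these sequences the MGO list had 505 and the control list 627. The result is given because its signal lies outside the peaks compared and the MGO count is above the control count. Its cause was not tested.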

How the results depend on the processing

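Of 84 recomputed values, 53 stayed within the main interval or within 1.5 times the main count, and 31 did not. The 53 include all values from joining peaks within 1000 bp, which could not change because no gap was that small. The difference between upstream and downstream retraction, whose main interval includes 0, changed sign at the limits of 1500 and 3000 bp. With a −log10 q of at least 2, 85.3% of wide peaks were at a TSS, 91.6% met an MGO peak and 2.02% met several. With a limit of 1500 bp, 31.4% had starts on both strands, 90.5% met an MGO peak, 15.9% met one of at least 2000 bp, 1.13% met several, the ratio with the lists exchanged was 0.998 and upstream minus downstream retraction was 18 bp. With 3000 bp, 71.3% were at a TSS, 98.9% met an MGO peak, 74.5% met one of at least 2000 bp and 12.8% met several, coverage was 89.4%, the ratio 0.911, the exchanged ratio 0.965 and the retraction difference 112 bp. Protein-coding starts only gave 78.0% at a TSS and 8.97% with both strands, and 1 start per gene gave 73.7% and 28.4%.

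Joining peaks within 1000 bp joined none, as the smallest gaps were 1113 bp in control and 1087 bp in MGO, so that it gave the main values. Joining within 3000 bp, chosen after seeing the data, gave 1499 wide peaks, 72% at a TSS, 30.6% with both strands, 85.7% meeting an MGO peak, 39.8% meeting one of at least 2000 bp, 1.33% meeting several, a coverage of 73.8% and a ratio of 0.824. Leaving out tandem-repeat and mitochondrial-like members, also chosen later, gave 86.5% at a TSS, and pairs with a mean width of at least 2000 bp a ratio of 0.945. A self-match of 40% gave 53 tandem-repeat members in place of 42. No paired analysis was possible because 1 list per condition was analysed, and leaving out a replicate was not possible either. Causes were not tested. The lists hold no reads, so how the peak edges change with depth could not be examined.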
